A study of Mus musculus with 24 samples.

Results

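The smooth muscle contractile apparatus was examined as 37 genes, taken by symbol from a deposited table of read counts for 25941 genes; each symbol matched a single row of that table. They comprised 14 genes of the thick and thin filaments and the proteins bound to them, 10 of adhesion and cytoskeletal linkage, 8 of myosin phosphorylation and calcium handling, and 5 transcription factors or signals. The RNA was poly(A)-selected from thoracic aorta of adult male wildtype C57BL/6 mice, 10 to 12 weeks old. The first group was fed chow containing celecoxib (100 mg/kg/day) for 3 weeks, the second was fed chow containing rofecoxib (50 mg/kg/day), and the control group was fed the same chow with no added drug. All 24 mice, controls included, were injected intraperitoneally with interleukin-1β (10 ug/kg), and aortas were collected 4 h later, at zeitgeber time 11, so no group shows these genes without the cytokine. There were 8 libraries in each group. Library totals lay between 21668798 and 21700121 reads, so depth hardly differed between libraries. The smallest library count of any of the 37 genes was 83 reads, for Pln.

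Smooth muscle shortens when calcium, entering through voltage-gated channels or released from the sarcoplasmic reticulum, activates myosin light chain kinase. The kinase phosphorylates the regulatory light chain, and myosin heads then pull on actin filaments anchored in dense bodies and at the membrane. Myosin phosphatase reverses the step, and nitric oxide signalling relaxes the vessel partly through it. Serum response factor, working with myocardin or with actin-sensing cofactors of the same family, switches on many of these genes by binding CArG boxes. Celecoxib and rofecoxib are selective inhibitors of cyclooxygenase-2; celecoxib carries a sulfonamide group and rofecoxib a methylsulfone. Prostacyclin made in the vessel wall is a relaxant of this muscle.

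The tissue label was checked first. Acta2, smooth muscle α-actin, was the most abundant of all genes in the table in CPM, read counts scaled to a common library size, with a mean of 13832 CPM over the 24 libraries. Flna ranked 2, Myh11, the smooth muscle myosin heavy chain, ranked 3 and Tagln ranked 4. Together the 37 genes took 7.29 to 8.68% of all reads in celecoxib aortas (median 7.91%), 6.30 to 8.61% in rofecoxib aortas (median 6.88%) and 6.21 to 7.96% in control aortas (median 7.51%). The ranges of the 3 groups overlapped.

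Levels per transcript length spanned more than 3 orders of magnitude of abundance among the 37 genes. On the scale of CPM per kilobase, Acta2 stood at 6797, the actin-binding protein transgelin (Tagln) at 4415 and the regulatory light chain gene Myl9 at 3074. Filamin A (Flna), which crosslinks actin, came to 1380 and Myh11 to 1352 CPM per kilobase. The kinase gene Mylk was at 243, and the genes of the phosphatase targeting subunits were at 191 (Ppp1r12b) and 74.7 (Ppp1r12a) CPM per kilobase. The transcription factors were lower, with Srf at 39.1, Mkl1 at 16.04 and Myocd, which encodes myocardin, at 8.95 CPM per kilobase. The lowest filament genes were Synpo2 at 78.2 and Des at 63.7 CPM per kilobase. Cacna1c, the pore subunit of the L-type calcium channel, was at 3.96 and Pln, which encodes the calcium pump inhibitor phospholamban, was the lowest at 3.12 CPM per kilobase.

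**Figure D1:**
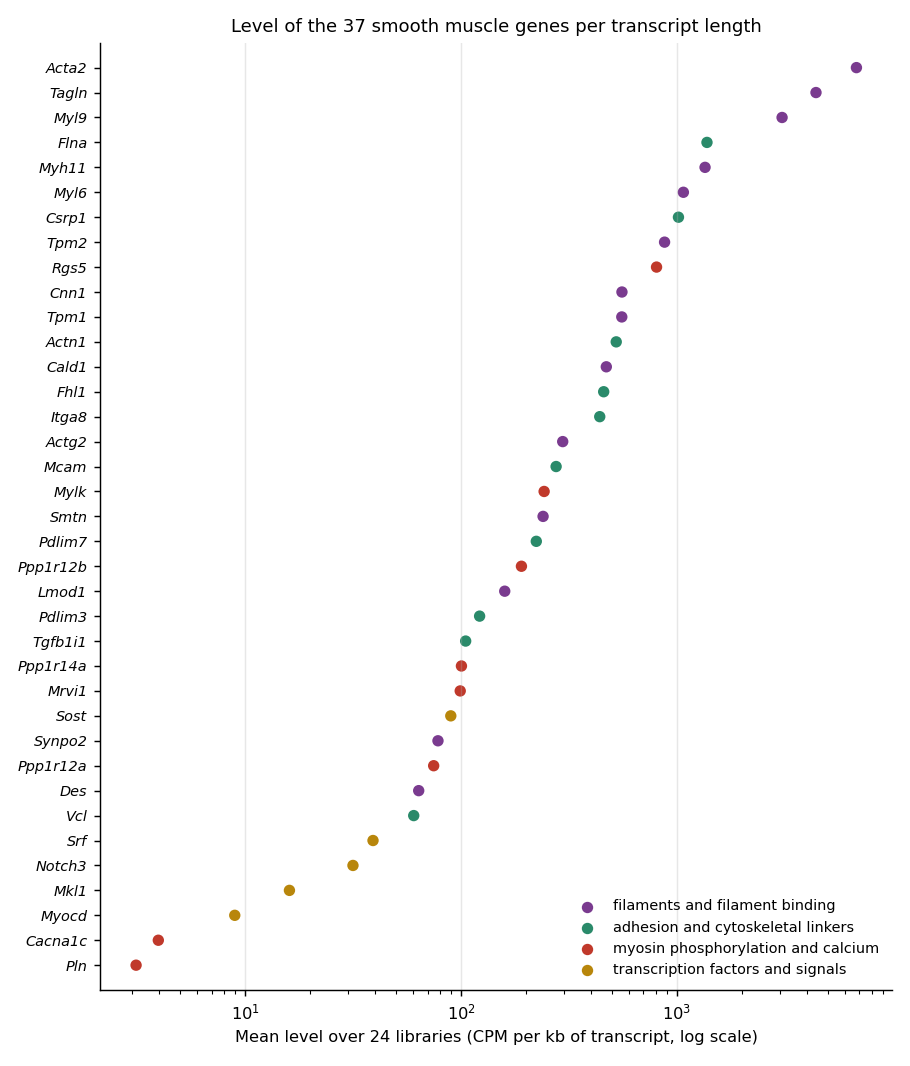
Mean level of each of the 37 genes over all 24 libraries, in CPM per kilobase of transcript on a log axis, coloured by role. The filament genes Acta2, Tagln and Myl9 lead the scale, with Acta2 at 6797, and Pln at 3.12 is the lowest.

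Promoters are shown because many of these genes are regarded as targets of serum response factor. RefSeq windows on GRCm38.p6, each from 250 bases before to 50 bases after a transcription start, were given for 32 of the 37 genes; Actg2, Myh11, Tagln, Tgfb1i1 and Myocd had none. A strict CArG box, searched on both strands by its palindromic consensus of a pair of C, a run of 6 A or T and a pair of G, occurred in windows of 5 genes, namely Myl6, Myl9, Vcl, Fhl1 and Srf. Over all genes with a window the share was 1.81%, and over all 32817 windows it was 1.63%. Srf, the gene of the factor itself, had a box at position -82 and another at -62 from the start; 0.0183% of all windows held 2 or more. The boxes lay at -161 in Myl9, -227 in Vcl, -102 in Fhl1 and -50 in 1 window of Myl6. The windows of Acta2, the most abundant gene, and Synpo2, the gene that passed the test below, are printed with them and held no strict box; a match or its absence describes these letters only. Looser matches were not searched for, and the Acta2 window holds ccctatatgg and ccttgtttgg, each 1 letter off the strict pattern. Capitals mark the strict boxes, and each sequence runs 5′ to 3′ on the gene's strand.
Srf, chr17:46556113-46556412, minus strand: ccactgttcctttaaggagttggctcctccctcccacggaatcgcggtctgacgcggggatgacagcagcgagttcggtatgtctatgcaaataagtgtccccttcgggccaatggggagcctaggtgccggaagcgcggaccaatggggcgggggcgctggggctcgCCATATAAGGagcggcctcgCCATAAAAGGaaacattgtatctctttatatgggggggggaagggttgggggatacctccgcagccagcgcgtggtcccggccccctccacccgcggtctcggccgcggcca
Myl9, chr2:156775214-156775513, plus strand: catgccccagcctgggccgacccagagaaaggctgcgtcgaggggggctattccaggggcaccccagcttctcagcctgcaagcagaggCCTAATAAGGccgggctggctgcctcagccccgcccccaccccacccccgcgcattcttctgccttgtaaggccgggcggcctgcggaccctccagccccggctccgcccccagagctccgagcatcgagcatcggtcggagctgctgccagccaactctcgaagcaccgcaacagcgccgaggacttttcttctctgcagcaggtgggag
Vcl, chr14:20929148-20929447, plus strand: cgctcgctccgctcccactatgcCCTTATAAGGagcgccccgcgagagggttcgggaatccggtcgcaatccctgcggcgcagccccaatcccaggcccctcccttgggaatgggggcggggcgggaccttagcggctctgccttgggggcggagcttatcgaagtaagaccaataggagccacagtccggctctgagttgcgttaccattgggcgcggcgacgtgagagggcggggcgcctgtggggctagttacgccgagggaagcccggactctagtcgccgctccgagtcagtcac
Acta2, chr19:34255324-34255623, minus strand: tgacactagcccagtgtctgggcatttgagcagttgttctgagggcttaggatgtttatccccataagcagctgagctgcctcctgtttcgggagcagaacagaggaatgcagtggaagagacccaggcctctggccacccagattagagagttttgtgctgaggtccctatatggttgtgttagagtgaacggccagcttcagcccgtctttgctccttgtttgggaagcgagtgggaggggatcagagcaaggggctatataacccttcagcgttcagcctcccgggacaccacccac
Synpo2, chr3:123236100-123236399, minus strand: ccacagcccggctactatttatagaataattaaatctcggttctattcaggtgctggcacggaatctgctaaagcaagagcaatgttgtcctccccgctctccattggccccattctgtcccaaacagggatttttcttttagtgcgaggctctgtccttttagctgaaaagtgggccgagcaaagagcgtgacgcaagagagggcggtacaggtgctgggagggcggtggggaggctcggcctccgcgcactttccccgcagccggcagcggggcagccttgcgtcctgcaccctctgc

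The comparison of rofecoxib with control asked whether the contractile genes differed after 3 weeks of the drug. Synpo2, an actin-binding protein of dense bodies and Z-discs, fell with rofecoxib. Its level was lowest at 536, median 586 and highest at 763 CPM in rofecoxib aortas, and lowest at 590, median 832 and highest at 925 CPM in control aortas. All 8 rofecoxib libraries lay below the control median and 6 lay below every control, but the groups overlapped, because control replicates 3 and 4 were at 590 and 626 CPM. The log2 fold change was -0.39 (SE 0.12; adjusted p = 0.0496, edgeR). The gene lies on chromosome 3 from 122779235 to 122939269 on mm9 (ENSMUSG00000050315). The call held in 6 of 24 refits without single libraries, with adjusted p between 0.022 and 0.099, so it stands at the edge of the threshold. It was also lost with no filter on low counts (adjusted p = 0.073) and with fat and muscle marker levels as covariates, where the log2 fold change was -0.27 (adjusted p = 0.26). In replicates 1 to 4 alone it was -0.29 (adjusted p = 0.34) and in replicates 5 to 8 alone -0.49 (adjusted p = 0.093), not called in either.

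Synpo2 was the 1 gene called of the 37 with rofecoxib, against 6.94% of the 14528 genes tested (3.06% lower). The other 36 did not pass. Of the 37 log2 fold changes, 35 were below 0, with a median of -0.16, while 45.1% of all tested genes were below 0 and their median was 0.02. When scaled by library size alone, 30 of the 37 were below 0 at a median of -0.10, and the median of all tested genes was 0.08. An unadjusted p under 0.05 was reached by 10 of the 37, all with lower values with rofecoxib; over all genes 11.8% did so on the lower side. The log2 fold changes above 0 belonged to Pln (0.26, SE 0.31) and Fhl1 (0.05, SE 0.09). For none of the 37 genes did the ranges of the rofecoxib and control libraries separate, against 0.509% of tested genes lower and 0.275% higher without overlap. In whole aorta, fewer muscle cells, less RNA per muscle cell and more RNA from other cells cannot be told apart.

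**Figure D2:**
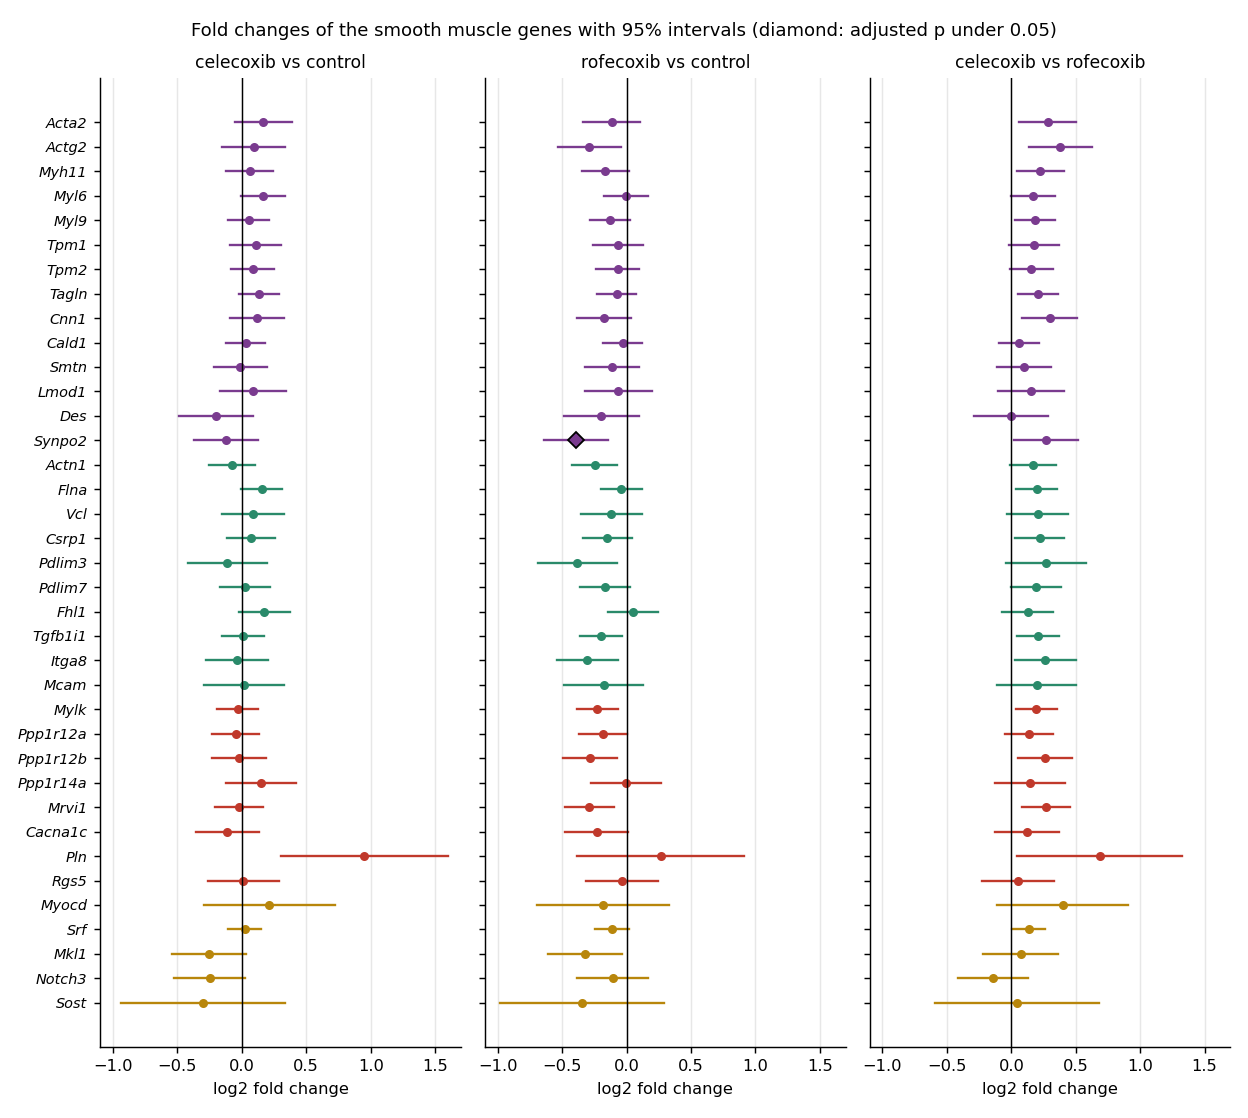
Log2 fold change of each gene (point) with its 95% interval (bar) for celecoxib against control, rofecoxib against control and celecoxib against rofecoxib, coloured by role as in the plot of levels; a diamond marks an adjusted p under 0.05. Synpo2 with rofecoxib is the 1 diamond, and 35 of 37 points lie below 0 for rofecoxib against control.

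Among the filament genes, 14 of 14 log2 fold changes were below 0 with rofecoxib (median -0.11) and 1, Synpo2, passed. Acta2 ranged from 10731 to 17395 CPM (median 12175) in rofecoxib aortas and from 10803 to 15760 CPM (median 14069) in control aortas. Of the rofecoxib libraries, 7 lay below the control median, yet replicate 8 held the highest value, above every control. The log2 fold change of Acta2 was -0.12 (SE 0.11; adjusted p = 0.48, edgeR). Acta2 lies on chromosome 19 from 34315378 to 34330028 on mm9 (ENSMUSG00000035783). Myh11, on chromosome 16 from 14194418 to 14291703 (ENSMUSG00000018830), ranged from 7116 to 10271 CPM (median 7704) in rofecoxib aortas and from 7244 to 10116 CPM (median 9288) in control aortas. Its log2 fold change was -0.16 (SE 0.09; adjusted p = 0.22, edgeR), and the groups overlapped over nearly their whole range. Enteric γ-actin, Actg2, had a log2 fold change of -0.29 (SE 0.12) and calponin, Cnn1, one of -0.18 (SE 0.10). The essential light chain gene Myl6 was at -0.004 (SE 0.08) and the caldesmon gene Cald1 at -0.03 (SE 0.07), so the values were not of one size across the filament. Of the 50-base windows in the Myl6 transcript, 18.5% also occur in other annotated genes such as the pseudogene Gm5526, so its counts are less certain than the others.

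The genes of myosin phosphorylation and calcium handling had 7 of 8 log2 fold changes below 0 with rofecoxib (median -0.21), and none passed. Mrvi1 encodes the partner through which cGMP-dependent kinase restrains calcium release from the sarcoplasmic reticulum. It had 473 to 677 CPM (median 510) in rofecoxib aortas and 520 to 731 CPM (median 689) in control aortas. All 8 rofecoxib libraries lay below the control median and 5 below every control. Its log2 fold change was -0.29 (SE 0.09; adjusted p = 0.053, edgeR). Mylk, the myosin light chain kinase, had 1464 to 2074 CPM (median 1649) in rofecoxib aortas and 1711 to 2153 CPM (median 2072) in control aortas, with 6 of 8 rofecoxib libraries below every control. Its log2 fold change was -0.23 (SE 0.08; adjusted p = 0.070, edgeR), and that of the phosphatase subunit gene Ppp1r12b was -0.29 (SE 0.10; adjusted p = 0.076, edgeR). The kinase and the phosphatase subunit, which act in opposite directions on the light chain, thus had log2 fold changes on the same side of 0. Ppp1r14a, an inhibitor of that phosphatase, was at -0.003 (SE 0.13), Rgs5, a brake on Gq and Gi signalling, at -0.04 (SE 0.14) and Cacna1c at -0.23 (SE 0.12).

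**Figure D3:**
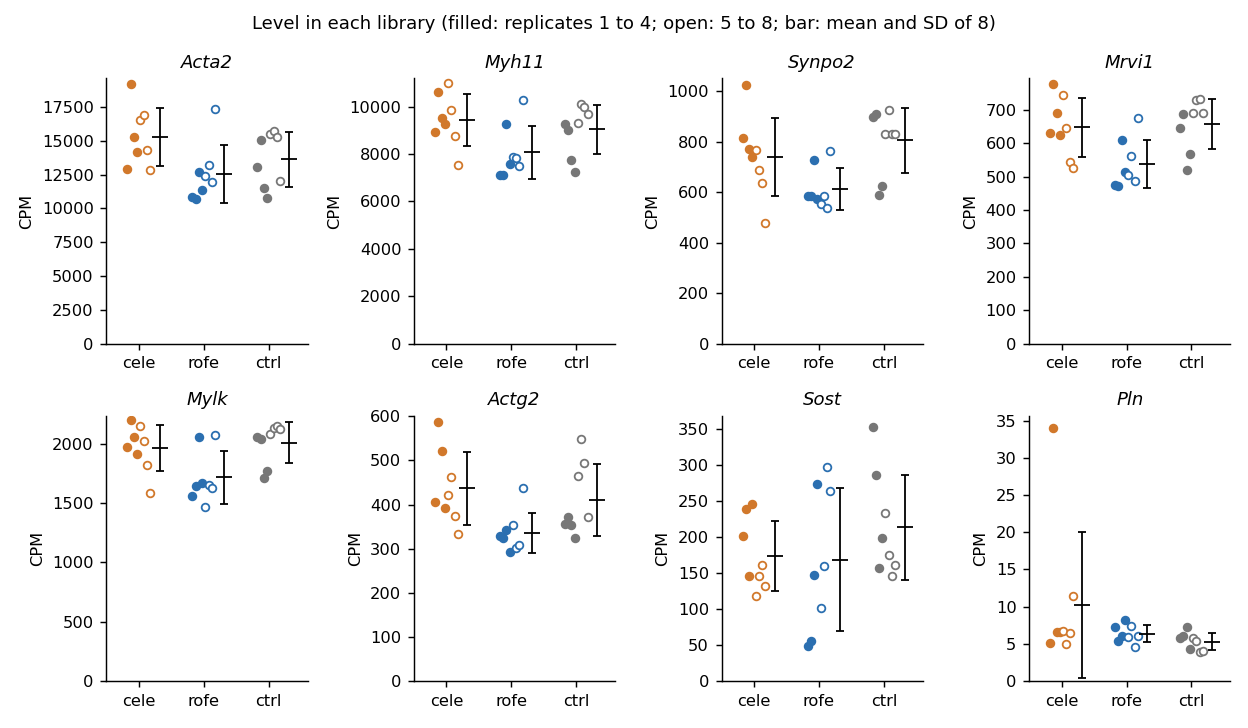
CPM of 8 of the genes in each library (points; filled for replicates 1 to 4, open for 5 to 8) with mean and SD of 8 libraries, for celecoxib (cele), rofecoxib (rofe) and control (ctrl) aortas. All 8 rofecoxib libraries lie below the control median for Synpo2 and Mrvi1, and 1 celecoxib library stands alone for Pln at 34.0 CPM.

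Among the linkers, 9 of 10 log2 fold changes were below 0 with rofecoxib (median -0.17). The crosslinker α-actinin, Actn1, had 1495 to 2153 CPM (median 1711) in rofecoxib aortas and 1772 to 2327 CPM (median 2163) in control aortas. All 8 rofecoxib libraries were below the control median, and the log2 fold change was -0.25 (SE 0.09; adjusted p = 0.071, edgeR). Itga8, the α8 integrin of contractile muscle, had 1775 to 2872 CPM (median 2231) in rofecoxib aortas and 2075 to 3164 CPM (median 2891) in control aortas, a log2 fold change of -0.30 (SE 0.12; adjusted p = 0.093, edgeR). Pdlim3, a PDZ and LIM protein that binds α-actinin, was at -0.38 (SE 0.15), with rofecoxib replicates 1 and 2 lowest among the 24 libraries in the heat map. Flna was at -0.04 (SE 0.08) and vinculin, Vcl, at -0.12 (SE 0.12).

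The 5 transcription factors and signals were all below 0 with rofecoxib (median -0.18), and none passed. Mkl1, listed now as Mrtfa, is an actin-sensing cofactor of serum response factor; it had 44.7 to 97.4 CPM (median 58.5) in rofecoxib aortas and 66.0 to 95.5 CPM (median 83.8) in control aortas. For Mkl1, 6 of 8 rofecoxib libraries were below every control and another was above every control, and its log2 fold change was -0.33 (SE 0.14). Reads of Mkl1 may include those of Sgsm3, which overlaps it on the opposite strand, since the strand setting of the counting is not given in the sources used here. Srf was at -0.11 (SE 0.06) and Myocd at -0.18 (SE 0.25). Sost, whose product sclerostin inhibits Wnt signalling and which arterial smooth muscle also makes, ranged from 47.9 to 298 CPM (median 153) in rofecoxib aortas and from 146 to 353 CPM (median 187) in control aortas. The spread of Sost inside the rofecoxib group exceeded the distance between the group medians, and its log2 fold change was -0.35 (SE 0.31).

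The comparison of celecoxib with control used the same 8 control libraries. None of the 37 genes was called with celecoxib by edgeR, against 0.0344% of all genes tested, and 1, Pln, reached an unadjusted p under 0.05, against 13.6% of all genes; DESeq2 and limma voom also called none. Log2 fold changes were above 0 for 23 and below 0 for 14 of the 37, with a median of 0.03, while 50.4% of all tested genes were above 0 at a median of 0.00. For none of the 37 did the celecoxib and control libraries separate (0.0895% of tested genes higher and 0.145% lower). Acta2 ranged from 12862 to 19190 CPM (median 14813) in celecoxib aortas, and 3 libraries exceeded every control. Its log2 fold change was 0.17 (SE 0.11; adjusted p = 0.50, edgeR). Myh11 ranged from 7554 to 10994 CPM (median 9386) in celecoxib aortas, with 4 of 8 libraries below the control median and a log2 fold change of 0.06 (SE 0.09; adjusted p = 0.78, edgeR). Synpo2 ranged from 479 to 1024 CPM (median 753) with celecoxib, the widest spread of the 3 groups, at a log2 fold change of -0.12 (SE 0.12; adjusted p = 0.66, edgeR).

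By role, the filament genes had 11 of 14 log2 fold changes above 0 with celecoxib (median 0.09) and the linkers 7 of 10 (median 0.02). Genes of phosphorylation and calcium handling had 3 of 8 above 0 (median -0.02), and the transcription factors and signals 2 of 5 (median -0.25). Flna was at 0.16 (SE 0.08), Myl6 at 0.16 (SE 0.08) and Fhl1, a LIM protein, at 0.18 (SE 0.09), with adjusted p by edgeR of 0.38, 0.38 and 0.41. On the other side Notch3, the receptor that maintains arterial smooth muscle, was at -0.25 (SE 0.13) and Mkl1 at -0.25 (SE 0.14), with adjusted p by edgeR of 0.40 and 0.42. All 8 celecoxib libraries had less Mkl1 than the control median, with 47.9 to 82.5 CPM (median 68.1). None of these differences exceeded the spread between libraries by the test.

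Pln had the largest log2 fold change of the 37 with celecoxib, 0.95 (SE 0.31; adjusted p = 0.21, edgeR), and it rested on a single library. Its level was 5.02 to 34.0 CPM (median 6.62) in celecoxib aortas, 4.61 to 8.19 CPM (median 6.06) in rofecoxib aortas and 3.95 to 7.29 CPM (median 5.52) in control aortas. Celecoxib replicate 2 held 34.0 CPM and the next library 11.4 CPM. Without celecoxib replicate 2 the log2 fold change was 0.37 (adjusted p = 0.30, edgeR). DESeq2, which by default replaces outlying counts in groups of 8, gave 0.35. That value may thus leave out the high count of this library and is not a separate estimate. The same library had 824 CPM summed over 10 markers of cardiac and slow muscle, against 9.80 to 70.5 CPM in the other celecoxib libraries, 6.73 to 73.3 CPM in rofecoxib aortas and 10.0 to 60.2 CPM in control aortas. Phospholamban is abundant in heart muscle; the part of heart muscle RNA in the Pln value was not tested.

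**Figure D4:**
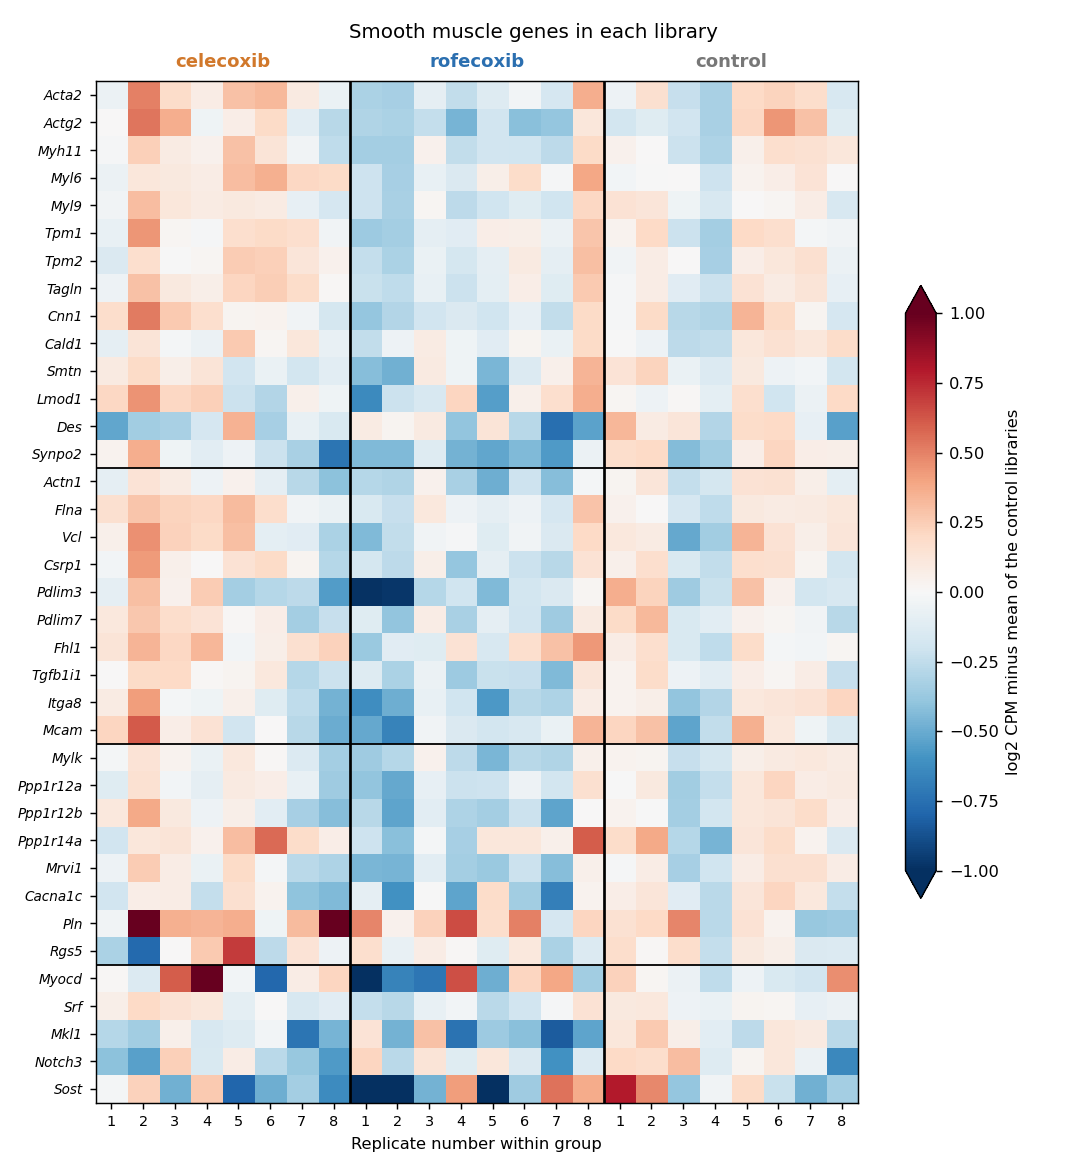
Log2 CPM of each gene minus its mean over the control libraries, by library within celecoxib, rofecoxib and control aortas (colour limited to ±1), with lines between roles and groups. Rofecoxib replicates 1 to 7 are mostly blue, replicate 8 mostly red, and control replicate 4 blue for 37 of 37 genes.

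Within a library, most of the 37 genes tended to lie on the same side of the control mean. The median over the 37 genes of log2 CPM minus the control mean was below 0 in 7 of 8 rofecoxib libraries, between -0.32 and -0.06. Rofecoxib replicate 8 was at 0.16 with 30 of 37 genes above 0. Among celecoxib libraries the median ran from -0.22 in replicate 8 to 0.25 in replicate 2, and 3 of 8 were below 0. Among controls it ran from -0.24 to 0.12, with replicates 3, 4 and 8 below 0, and in control replicate 4 the level was below the control mean for 37 of 37 genes. Markers of fat ran opposite to this median in some libraries and not in others. The summed level of 17 general adipocyte markers was 3545 to 9117 CPM (median 5779) in celecoxib aortas, 4103 to 16870 CPM (median 12740) in rofecoxib aortas and 3500 to 17810 CPM (median 7349) in control aortas. Rofecoxib replicate 8 was the lowest of its group at 4103 CPM and control replicate 4 the highest of all at 17810 CPM. Celecoxib replicate 8 and control replicate 8, whose contractile medians were below 0, had 5443 and 6402 CPM, under their group medians, and celecoxib replicate 1, the highest of its group at 9117 CPM, had a contractile median of -0.03. All 17 adipocyte markers had reads in every group. Of these, 3 were called higher with rofecoxib, and 8 were called lower with celecoxib than with rofecoxib. Over all 14528 tested genes, 563 were called higher with rofecoxib, and 628 lower with celecoxib than with rofecoxib. With general adipocyte and skeletal muscle levels as covariates, 24 of the 37 genes were below 0 for rofecoxib against control, the median was -0.05 and none was called.

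Other marker lists were measured in the same way. Endothelial markers (17) summed to 1038 to 1675 CPM (median 1278) in celecoxib, 943 to 1740 CPM (median 1509) in rofecoxib and 1094 to 1373 CPM (median 1276) in control aortas, and 3 were called higher with rofecoxib. Fibroblast markers (12) summed to 6332 to 8759 CPM (median 7181), 5534 to 8213 CPM (median 6745) and 6571 to 9206 CPM (median 7830) in the same order, and 2, the collagen genes Col1a1 and Col1a2, were called lower with rofecoxib. Of the 12 fibroblast log2 fold changes with rofecoxib, 8 were above 0 and 4 below, with a median of 0.04. Called higher with rofecoxib were also 2 of 13 brown adipocyte, 1 of 15 macrophage, 1 of 11 Schwann cell and 1 of 5 tested pericyte markers. Over all 14528 tested genes, 563 were called higher and 445 lower with rofecoxib. Of the 5 tested pericyte markers, 3 had log2 fold changes above 0 and 2 below with rofecoxib. The pericyte sum was 706 to 1117 CPM (median 907) in celecoxib, 674 to 1033 CPM (median 829) in rofecoxib and 869 to 1036 CPM (median 920) in control aortas. The macrophage sum was 169 to 365 CPM (median 261) in celecoxib, 209 to 542 CPM (median 399) in rofecoxib and 264 to 392.1 CPM (median 285) in control aortas. The Schwann cell sum was 118 to 168 CPM (median 140), 137 to 817 CPM (median 222) and 133 to 334 CPM (median 153), and the brown adipocyte sum 217 to 701 CPM (median 508), 505 to 2095 CPM (median 1171) and 304 to 1361 CPM (median 591), in the same order of groups. No marker of these lists was at 0 in every library of a group. None of 9 neutrophil, 8 erythroid and platelet, 5 cardiac and 5 skeletal muscle markers tested was called with rofecoxib, and none of any list was called with celecoxib against control. Between the drugs, 7 of 9 neutrophil, 5 of 11 Schwann cell, 5 of 15 macrophage and 4 of 13 brown adipocyte markers were called lower with celecoxib, besides the 8 general adipocyte markers. Over all 14528 tested genes, 628 were called lower with celecoxib than with rofecoxib. With the compared groups alone, 0 genes were called between the drugs. The neutrophil sum was 12.3 to 43.8 CPM (median 26.4) in celecoxib aortas and 25.1 to 145 CPM (median 62.9) in rofecoxib aortas. Their part in the values of the contractile genes was not tested beyond the covariate fit.

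Leaving out single libraries moved the counts. Without rofecoxib replicate 8, edgeR called 8 of the 37 genes lower with rofecoxib (Actg2, Actn1, Itga8, Mrvi1, Mylk, Ppp1r12b, Synpo2 and Tgfb1i1). Calls rose over the whole table in that fit too, to 1945 genes with 799 lower, against 1008 with 445 lower when all libraries were used. Of the 37 genes, edgeR called 5 without rofecoxib replicate 3, 5 without control replicate 3, 4 without control replicate 4, 2 without celecoxib replicate 2 or 8, 1 (Mrvi1) without celecoxib replicate 7 and none without any 1 of the other 17 libraries. Over the whole table, the fit without rofecoxib replicate 3 called 1182 genes (543 lower). Without control replicate 3 it was 1220 (558 lower), and without control replicate 4 it was 1789 (618 lower). Without celecoxib replicates 2, 8 and 7 in turn it was 1121, 1110 and 1052 (535, 510 and 476 lower). Between 31 and 36 of the 37 log2 fold changes stayed below 0 in the 24 fits that left out a library. The labels name no batch for single libraries. Within replicates 1 to 4, the median over the 37 genes was 0.13 for celecoxib (31 above 0) and -0.16 for rofecoxib (33 below 0); within replicates 5 to 8 it was -0.10 for celecoxib (27 below 0) and -0.10 for rofecoxib (29 below 0). The direction for celecoxib thus turned between these sets of replicate numbers, and that for rofecoxib did not.

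Celecoxib and rofecoxib were set side by side although their doses differed, so the values do not compare the compounds at a matched dose. None of the 37 genes was called between the drugs by edgeR, against 4.89% of all tested genes. Celecoxib had the higher value for 35 of the 37, with a median log2 difference of 0.19, while 51.7% of all tested genes were above 0 at a median of 0.01. With the adipocyte and skeletal muscle covariates 23 of the 37 were above 0 at a median of 0.04. The median was 0.31 within replicates 1 to 4 (33 above 0) and 0.07 within replicates 5 to 8 (27 above 0). An unadjusted p under 0.05 was reached by 16 of the 37, all higher with celecoxib, against 7.94% of all genes on that side. For none of the 37 did the ranges of the drug groups separate (0.0138% of tested genes higher, 0.0413% lower). Actg2 had 333 to 587 CPM (median 414) in celecoxib aortas and 293 to 437 CPM (median 326) in rofecoxib aortas, a log2 difference of 0.38 (SE 0.12, 95% interval 0.14 to 0.62; adjusted p = 0.059, edgeR). Cnn1, which binds actin and myosin and slows their cycling, had 1173 to 1898 CPM (median 1422) in celecoxib aortas and 1010 to 1512 CPM (median 1157) in rofecoxib aortas. The log2 difference was 0.30 for Cnn1 (0.09 to 0.51), 0.27 for Mrvi1 (0.08 to 0.46) and 0.21 for Tagln (0.06 to 0.36), with adjusted p by edgeR of 0.079, 0.077 and 0.089. For Acta2 it was 0.28 (0.06 to 0.50) and for Myh11 0.22 (0.04 to 0.41), with adjusted p by edgeR of 0.11 and 0.13. For Tgfb1i1, a LIM cofactor at focal adhesions, it was 0.21 (0.04 to 0.37; adjusted p = 0.12) and for Synpo2 0.27 (0.02 to 0.52; adjusted p = 0.18). No difference was shown by this test, nor was it shown that the drugs act alike. Without rofecoxib replicate 8, 15 of the 37 were called higher with celecoxib, Acta2 and Myh11 among them; over the whole table that fit called 1997 genes, 528 of them higher, against 710 with 82 higher when all libraries were used. Without control replicate 4 or celecoxib replicate 7 the single call was Actg2, and without celecoxib replicate 8 the calls were Actg2 and Mrvi1. Over the whole table these fits called 1023, 934 and 787 genes in that order, 123, 169 and 170 of them higher.

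Most of the 37 genes followed Myh11 from library to library. The relation was not computed for genes outside the 37, so the counts that follow have no share over all genes beside them. Over the 24 libraries, Pearson's r of log2 CPM with Myh11 had a median of 0.737 over the other 36 genes, exceeded 0.8 for 14, and passed at an adjusted p under 0.05 for 27 (26 by Spearman's rank correlation; permutation tests of 100000 resamples, adjusted over 36 relations). The closest was Mrvi1, with r = 0.928 and a Spearman coefficient of 0.904 (permutation p = 1e-05 each, the smallest possible, adjusted p = 3e-05 for r and 2.77e-05 for the Spearman coefficient). Without rofecoxib replicates 1 and 2, the libraries farthest from the median of Myh11, r was 0.906; it was 0.933 within replicates 1 to 4, 0.930 within replicates 5 to 8 and 0.930 after removing group means. Flna (r = 0.921), Mylk (0.909), Ppp1r12a (0.893), Itga8 (0.863) and Acta2 (0.863) came next. Genes whose relation to Myh11 did not pass over the 24 libraries were Fhl1 (r = 0.391), Sost (0.338), Lmod1 (0.335), Mkl1 (0.299), Myocd (0.146), Pln (0.098), Des (0.084), Notch3 (0.034) and Rgs5 (0.026). Some of these differed between sets of replicate numbers: within replicates 1 to 4 and 5 to 8, r was 0.774 and -0.212 for Fhl1, 0.666 and 0.038 for Lmod1, 0.575 and -0.024 for Sost, and 0.225 and 0.642 for Mkl1. These 9 include the cofactors myocardin and Mkl1, the intermediate filament gene Des, and Lmod1, an actin nucleator of smooth muscle. The relations of Smtn and Pdlim3 were 0.538 and 0.603, and 0.359 and 0.429 without the 2 libraries, so they rested in part on those. Some relations that passed for r also differed between replicates 1 to 4 and 5 to 8. In that order r was 0.856 and 0.292 for Smtn, 0.811 and 0.372 for Pdlim3 and 0.859 and 0.409 for Myl6. Others held in both sets, such as Mylk (0.950 and 0.932) and Flna (0.930 and 0.924).

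**Figure D5:**
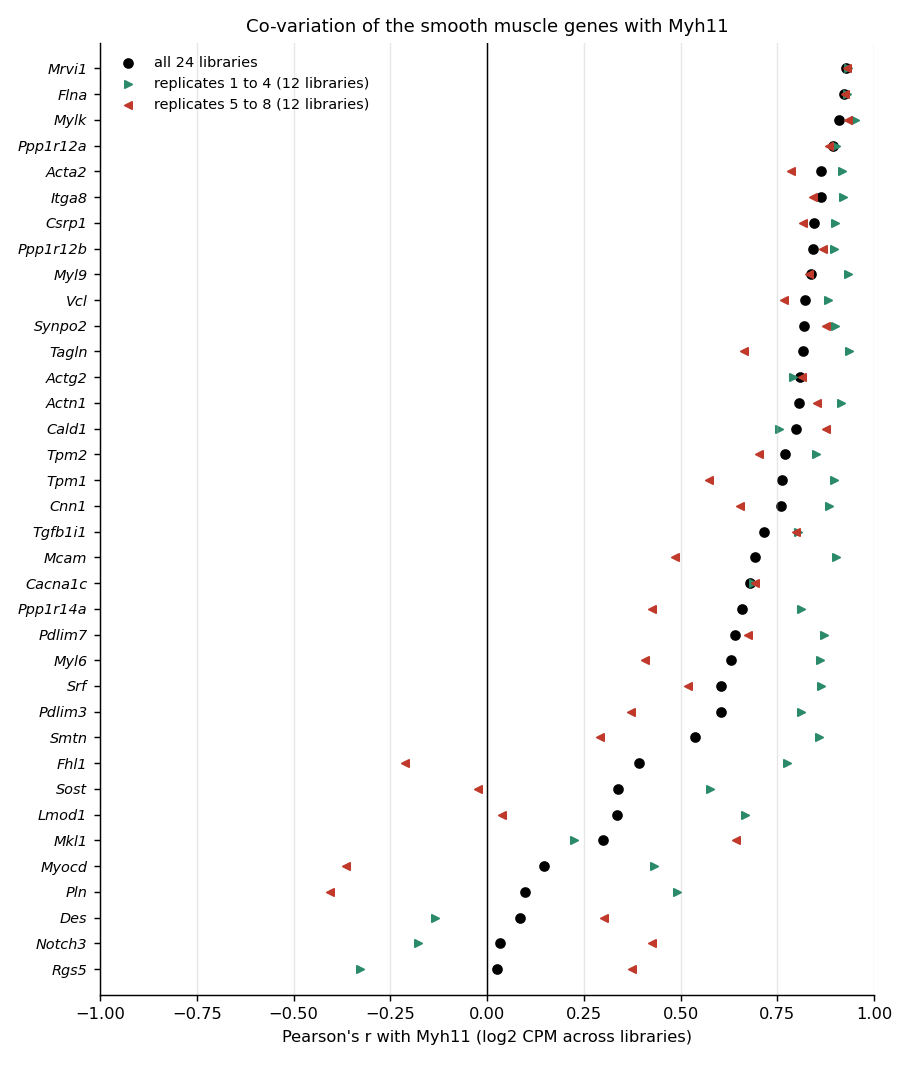
Pearson's r of each gene with Myh11 over log2 CPM in all 24 libraries (circles) and within replicates 1 to 4 and 5 to 8 (triangles, 12 libraries each). The circles of 14 genes lie above 0.8, and Des, Notch3 and Rgs5 lie near 0.

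Genes around the apparatus were taken from 3 further lists. Of 45 tested genes for other actin and myosin chains and filament proteins, 1 was called lower with rofecoxib (3.06% of all tested genes were). It was Vim, the intermediate filament vimentin, at 3431 ± 498 CPM in rofecoxib aortas and 4214 ± 376 CPM in control aortas (SD, n = 8 each). The log2 fold change of Vim was -0.30 (SE 0.09, adjusted p = 0.043, edgeR). The list had 34 of 45 log2 fold changes below 0 with rofecoxib, at a median of -0.08. Of 44 tested genes of contraction signalling, 2 fell and 1 rose with rofecoxib, a share near the 6.94% called over all tested genes. Cacna2d1, a calcium channel subunit, fell by 0.28 (SE 0.07) and Camk2g, a calmodulin-dependent kinase gene, rose by 0.33 (SE 0.08). This list had 26 of 44 below 0 at a median of -0.05.

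Of 44 tested regulators of the contractile programme, 4 fell and 2 rose with rofecoxib, where 3.06% of all tested genes were called lower and 6.94% in all. The ligand gene Tgfb1, whose product promotes contractile differentiation, fell to 49.4 ± 14.3 CPM in rofecoxib aortas, against 72.9 ± 13.4 CPM in control aortas, a log2 fold change of -0.56 (SE 0.16; adjusted p = 0.041, edgeR). Tgfb3 fell by 0.40 (SE 0.12), Zfhx3, a homeobox factor gene, by 0.34 (SE 0.08) and Tead3, a Hippo pathway factor gene, by 0.27 (SE 0.07). Mkl2, the close relative of Mkl1, rose by 0.40 (SE 0.09) and Elk3, an Ets factor that partners serum response factor, by 0.36 (SE 0.08). The list had 23 of 44 below 0 at a median of -0.01. With celecoxib none of these 3 lists had a called gene, with medians of 0.03, -0.02 and -0.01 in the order given, and none had one between the drugs. The rofecoxib calls of these 3 lists were not followed gene by gene through the alternative fits. Over the whole table, rofecoxib calls numbered 1008 in the main fit, 59 with the marker covariates, 42 in replicates 1 to 4 alone and 2448 with limma voom.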

How the data were processed

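Poly(A)-selected RNA was sequenced from 24 thoracic aortas, 8 per group, prepared with a TruSeq RNA kit over 3 days, per the labels' protocols; the day of each is not given in the sources used here.
Whole-number read counts per gene were deposited by the authors and analysed without change. The submitters' processing notes name CASAVA 1.8.1, STAR 2.5.1b and mm9; the counter, annotation and strand setting are not given in the sources used here, nor is the reason why totals differ by at most 0.145%. Labels call the libraries biological replicates, and p-values measure the spread between them.

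Tests were run with edgeR 4.0.16 (R 4.3.3): TMM factors, filterByExpr as supplied (14528 genes tested, all 37 contractile genes among them), a quasi-likelihood fit of 3 group means on 24 libraries and Benjamini-Hochberg adjustment over all tested genes, two-sided, at 0.05. CPM are TMM-scaled. Log2 CPM used a prior count of 2. Lengths are of the longest coding transcript of GENCODE vM21. Alternatives were RLE factors, library size alone, other filters, DESeq2 1.42.0, limma 3.58.1 voom, the compared groups alone, a replicate block, replicate sets, marker covariates and leaving out each library. The fit was tested on simulated data.

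The 37 genes (members below), lists, replicate sets and tests were chosen with earlier results of these data known. Full statistics are given for Acta2, Myh11, called members and the 6 members with the smallest p in each comparison. From the other lists, called genes are named, except 1 that is not reported here. Marker lists were summed in CPM.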

Additional observations from a re-analysis of the deposited data

Results flagged for a closer look

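For 6 of the 111 sets of 8 values (37 genes in 3 groups), 1 library stood apart from the rest of its group by Dixon's criterion at the 95% level, which chance gives in about 1 of 20 such sets. Rofecoxib replicate 8 accounted for 4. Acta2 was at 17395 CPM there, against 13246 CPM in the next rofecoxib library. Actg2 was at 436.69 CPM, against 354.19 CPM, Cnn1 at 1512.2 CPM, against 1247.8 CPM, and Ppp1r14a at 138.42 CPM, against 98.182 CPM. In celecoxib aortas Des was at 264.26 CPM in replicate 5, against 196.33 CPM in the next library, and Pln at 33.975 CPM in replicate 2, against 11.386 CPM.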

How the results depend on the processing

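Of the values recomputed for single genes, 3 changed sign: Acta2 with rofecoxib came to 0.066 with the marker covariates, Myh11 with celecoxib to -0.077 in replicates 5 to 8 alone and Synpo2 with celecoxib to 0.15 in replicates 1 to 4 alone; the causes were not tested. Members called for rofecoxib against control were 2 with RLE factors, library size alone, a mean of at least 1 CPM or a term for replicate sets, 5 with DESeq2, 10 with limma voom, and 0 without a filter, with the replicate block, in either replicate set alone or with the covariates; leaving out 1 library gave 0 to 8. Between celecoxib and rofecoxib they were 4 with DESeq2, 8 in replicates 1 to 4 alone and 0 to 15 leaving out 1 library. Genes called over the whole table, in the order celecoxib against control, rofecoxib against control, celecoxib against rofecoxib, were 2, 557 and 0 without a filter, 107, 1797 and 1425 with DESeq2, 9, 42 and 2073 among replicates 1 to 4, 313, 401 and 0 among replicates 5 to 8, 0, 59 and 0 with the covariates, and 0 to 34, 358 to 1945 and 0 to 1997 leaving out 1 library. For celecoxib and rofecoxib against control they were 121 and 2448 with voom and 174 and 1735 with the set term. With the compared groups alone they were 45 for celecoxib against control and 0 between drugs, and with the replicate block 27 and 0. For rofecoxib, scaling by library size gave 1106 higher and 310 lower calls, against 563 and 445 with TMM. Replicate numbers did not pair the libraries: same-numbered pairs correlated between -0.303 and 0.56, over 0.1 in 12 of 24, and 7 of 24 libraries correlated best with their own number. At this depth the spread between aortas and not counting error limits these genes.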
